A study of Mus musculus with 24 samples.

Results

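The mouse Mup genes encode the major urinary proteins, small secreted lipocalins. Levels of 7 of them, Mup2, Mup3, Mup7, Mup17, Mup18, Mup19 and Mup20, were measured in liver and heart. They are the rows, among the 15323 genes of the deposited table, whose Ensembl identifiers carry these symbols in the GENCODE vM21 annotation of GRCm38, and all 7 were found. The table also holds 12 other protein-coding Mup genes and 6 Mup pseudogenes, which serve here for comparison.

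Polyadenylated RNA came from the median lobe of the liver and the left ventricle of the heart of male mice aged 10 weeks, bred from C57BL/6 and NZB stock. The 4 genotypes are named by nuclear genome and mitochondrial DNA (mtDNA). In BL/6J:C57 and NZB:NZB both come from the same strain. BL/6J:NZB and NZB:C57 are conplastic: 10 backcross generations put mtDNA from NZB beside the C57BL/6 nuclear genome, or mtDNA from C57 beside the NZB nuclear genome. The labels name no treatment in any group. Each genotype had 12 males, and RNA of 4 males was combined into each pool, which gave 3 pools (replicates 1, 2 and 3) per genotype and tissue. A replicate is therefore a pool of different animals, and an adjusted p sets a difference against the spread between pools, not between single animals. The labels do not say whether the liver and heart pools of a genotype hold the same males. Nuclear DNA left from the mtDNA donor was not looked for here, and neither was the mtDNA label of each library. Titles of BL/6J libraries contain "mix" and those of NZB libraries "rep", so any difference in handling between them and the effect of the nuclear genome cannot be told apart.

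MUPs are made mainly by hepatocytes, pass into the blood and are excreted in urine, where they bind small volatile pheromones and release them slowly. Liver Mup transcription is known to be higher in male mice, under the pulsatile growth hormone secretion of males and its signalling through the growth hormone receptor, JAK2 and STAT5b, with androgens, glucocorticoids and thyroid hormone as further regulators. Most Mup genes are recent duplicates of one another (the central group), while a few, Mup3 and Mup20 among them, have diverged. Mup20 encodes darcin, a male pheromone that attracts females.

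All 7 genes lie on the minus strand of chromosome 4 and have 7 exons in the annotation. On GRCm38, Mup7 spans chr4:60066469-60070475 and Mup2 spans chr4:60135932-60154289. Mup17 spans chr4:61591929-61595871, Mup18 chr4:61670177-61674136 and Mup19 chr4:61778324-61782269. Mup20 spans chr4:62050234-62054158 and Mup3 chr4:62083476-62087342. The longest transcripts of Mup2, Mup7, Mup17, Mup18 and Mup19 were 98.6 to 99.6% identical to one another in pairwise alignment. Mup20 was 90.6 to 91.2% identical to these 5, and Mup3 was 83.6 to 86.7%. The 60 bases that follow show how little separates the copies. They are positions 13 to 72 of the coding sequence, all in exon 1, and are the stretch within 1 exon that holds the most positions varying among the 5 near-identical genes (3 of the 11 in the whole coding sequence). Sequences run 5′ to 3′ from GRCm38, and capitals mark bases that differ from Mup2.
Mup2 (chr4:60139715-60139774, minus strand): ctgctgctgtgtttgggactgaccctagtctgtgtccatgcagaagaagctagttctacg
Mup7 (chr4:60070229-60070288, minus strand): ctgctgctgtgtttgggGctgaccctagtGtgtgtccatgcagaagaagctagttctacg
Mup17 (chr4:61595689-61595748, minus strand): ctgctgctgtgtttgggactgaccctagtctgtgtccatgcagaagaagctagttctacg
Mup18 (chr4:61673951-61674010, minus strand): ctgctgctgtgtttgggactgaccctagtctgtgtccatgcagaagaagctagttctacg
Mup19 (chr4:61782087-61782146, minus strand): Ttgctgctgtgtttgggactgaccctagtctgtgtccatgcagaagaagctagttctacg
Mup20 (chr4:62053975-62054034, minus strand): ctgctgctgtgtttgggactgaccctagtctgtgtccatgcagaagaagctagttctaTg
Mup3 (chr4:62087148-62087207, minus strand): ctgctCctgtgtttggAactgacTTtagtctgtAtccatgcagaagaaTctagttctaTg
In this stretch Mup17 and Mup18 were identical to Mup2. Over the 540 coding bases of Mup2 without the stop codon, the number of differences from Mup2 was 2 in Mup18, 3 in Mup19, 6 in Mup17, 7 in Mup7, 47 in Mup20 and 80 in Mup3.

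The likeness bears on what each row measures, because the authors had to divide reads among copies. Of all 31-base words in the annotated transcripts of Mup19, 100% also occur in another gene's transcripts, so no word is its own, and 86.9% occur in Mup9. Of its words, Mup18 had 6.9% to itself, Mup7 10.0%, Mup17 13.8% and Mup2 21.3%. Mup20 had 35.5% and Mup3 69.9%, the largest parts among the 7. GRCm38 is an assembly of C57BL/6J, so a row counts reads that match a C57BL/6J copy, and no NZB assembly was used here. For this reason the sum of the 7 genes is given beside the single genes.

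The RefSeq promoter table (GRCm38.p6) matched 6 of the 7 genes, all but Mup20. The 200 bases before the transcription start are shown for Mup2 and Mup19, whose levels went opposite ways between nuclear genomes, and for the diverged Mup3. Capitals mark the letters TATATAA.
Mup2 (chr4:60139857-60140056, minus strand): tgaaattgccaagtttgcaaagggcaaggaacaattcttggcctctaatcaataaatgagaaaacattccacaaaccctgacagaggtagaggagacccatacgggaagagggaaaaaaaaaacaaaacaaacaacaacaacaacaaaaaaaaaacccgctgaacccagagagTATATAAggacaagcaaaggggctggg
Mup19 (chr4:61782225-61782424, minus strand): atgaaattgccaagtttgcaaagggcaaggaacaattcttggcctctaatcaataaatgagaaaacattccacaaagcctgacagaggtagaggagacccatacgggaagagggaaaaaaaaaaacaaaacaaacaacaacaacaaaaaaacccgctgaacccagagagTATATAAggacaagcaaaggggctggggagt
Mup3 (chr4:62087318-62087517, minus strand): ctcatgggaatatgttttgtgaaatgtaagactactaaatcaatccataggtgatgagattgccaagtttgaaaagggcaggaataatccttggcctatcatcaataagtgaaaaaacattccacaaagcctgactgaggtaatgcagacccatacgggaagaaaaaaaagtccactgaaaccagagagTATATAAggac
The 300-base windows (250 before and 50 after the start) of Mup2, Mup17 and Mup19 were 99.0 to 99.3% identical. Mup3 was 84.5 to 88.6% identical to the other members. TATATAA, searched on both strands, occurred in 5 of the 6 windows and was absent from that of Mup7. The Mup7 window is displaced, and aligned over only 166 to 175 bases to those of Mup2, Mup17, Mup18 and Mup19. It ends before the stretch that holds TATATAA in these copies, so its lack of the motif does not show that Mup7 has none. TATATAA occurred in all 6 windows of other protein-coding Mup genes that were matched, and in 3.2% of all 32851 promoters. This motif was chosen after the sequences were seen. The letters of a STAT5 site, TTCNNNGAA, were in 0 of the 6 windows and in 8.3% of all promoters. The letters TTGCNNAA, of the kind bound by C/EBP factors, and TATAAA were also in 0 of 6, against 10.8% and 13.6% of all promoters. AGAACA, part of a steroid receptor site, was in the window of Mup3 and in 19% of all promoters. A TATATAA followed by a further A would also contain TATAAA, and no member window held one.

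Values are the deposited normalised read counts, and reads are the whole numbers recovered from them. Libraries held 7294525 to 34974268 reads in liver and 3714278 to 12949956 in heart. Differences are log2 fold changes of value + 1, with standard errors (SE), from limma fitted to the 12 libraries of a tissue, and a gene is called when its p, adjusted over all genes tested by Benjamini-Hochberg, is under 0.05. Of the heart libraries, NZB:NZB replicates 2 and 3 stood apart from replicate 1 in their Mup values, and every heart comparison with NZB:NZB is given with and without them. All 20 hepatocyte markers were detected in every liver group, with summed levels of 185858 to 350862. The 12 cardiomyocyte markers summed to 0.438 to 1.30 in BL/6J livers, 55.5 to 189 in NZB:NZB livers and 0.549 to 175 in NZB:C57 livers.

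In BL/6J livers the 7 genes made up a sizeable part of all messenger RNA, whichever mtDNA was present. Their summed reads were 5.56 to 8.37% of all reads in BL/6J:C57 livers and 6.15 to 9.65% in BL/6J:NZB livers. In NZB:NZB livers the share was 0.402 to 0.544%, and in NZB:C57 livers 0.718 to 1.03%. As normalised counts, the sum in replicates 1, 2 and 3 averaged 101137 ± 21837 (SD, n = 3) in BL/6J:C57, 98327 ± 26407 in BL/6J:NZB, 12293 ± 1911 in NZB:C57 and 5674 ± 862 in NZB:NZB. The ranges of the BL/6J genotypes overlapped, while each NZB genotype was apart from all others. The mean sum was 2.17-fold higher in NZB:C57 than in NZB:NZB. It was 8.23-fold lower in NZB:C57 than in BL/6J:C57 and 17.3-fold lower in NZB:NZB than in BL/6J:NZB. The sum carries no test, being a score over chosen genes. Over all 19 protein-coding Mup genes of the table these ratios were 2.52, 3.09 and 7.23, since the 7 genes made up 67.1 to 72.7% of that total in BL/6J livers and 21.6 to 30.8% in NZB livers. A level in pooled tissue does not by itself separate fewer cells of a type from less RNA per cell. Beside these sums, the 20 hepatocyte markers summed to 185858 to 228384 in BL/6J livers and to 257957 to 350862 in NZB livers, so the NZB livers were the higher in that measure. The ratio of the 7 genes to albumin (Alb) was 0.985 to 1.74 in BL/6J livers and 0.0359 to 0.0991 in NZB livers.

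**Figure D1:**
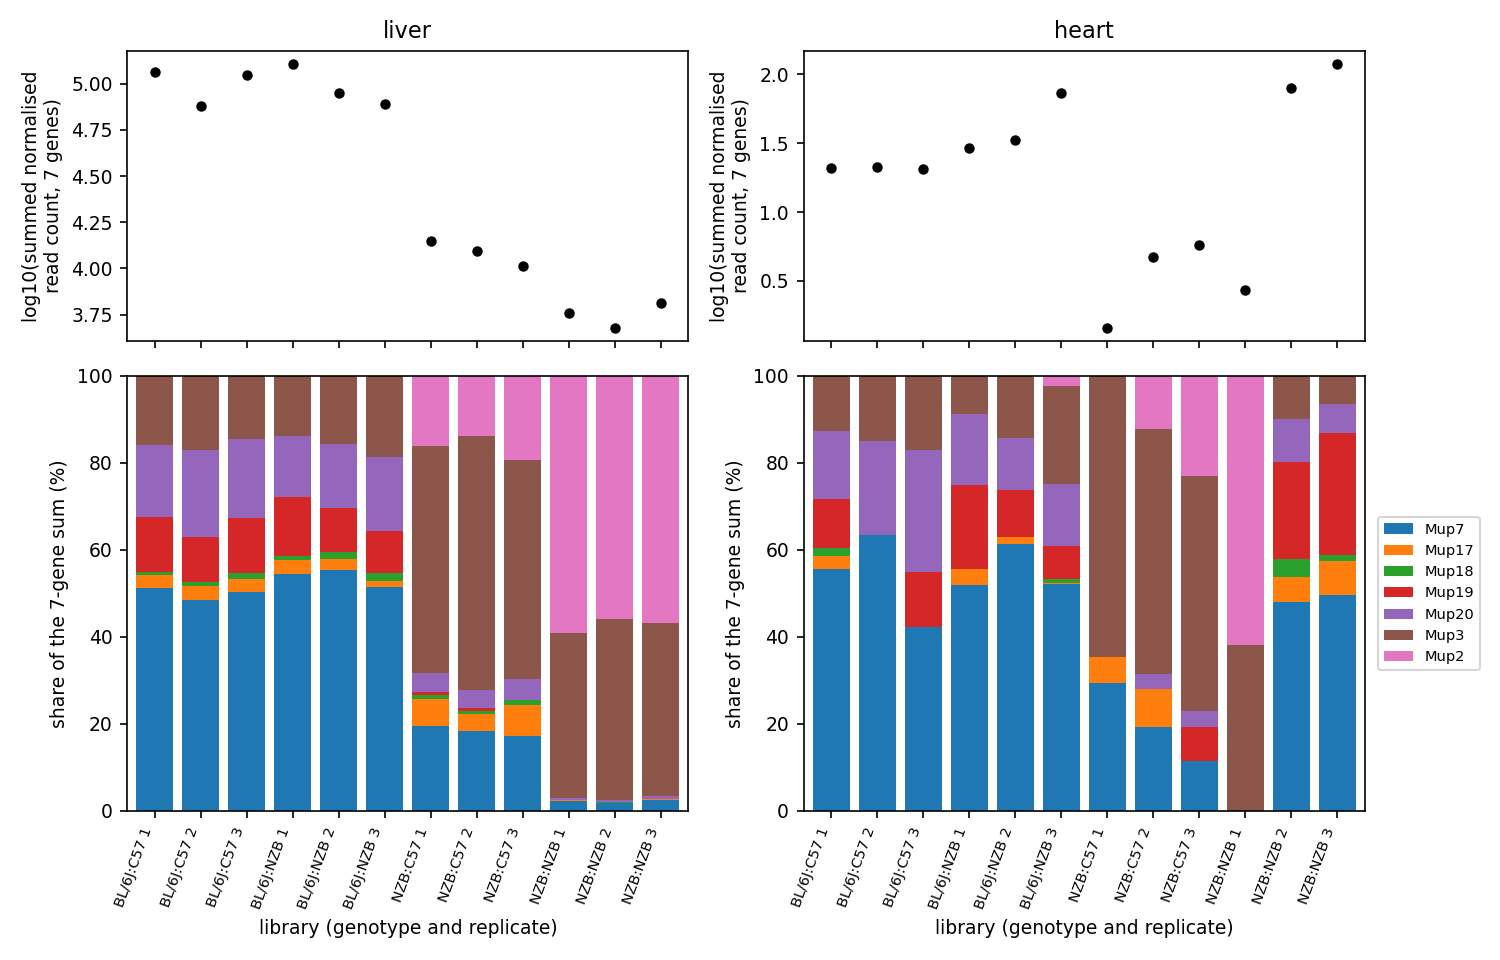
Top panels: summed normalised count of the 7 Mup genes in each library (log10 axis), liver left and heart right; bottom panels: each gene's share (%) of the 7 genes' reads in the same libraries. Mup7 holds the largest share in BL/6J livers (48.6 to 55.5%) and Mup2 in NZB:NZB livers (56.0 to 59.1%); among NZB:NZB hearts, Mup2 is present in replicate 1 and has 0 reads in replicates 2 and 3, as in several hearts of other genotypes.

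Which copy dominated differed by nuclear genome and, among NZB livers, by mtDNA. Mup7 held 48.6 to 55.5% of the 7 genes' reads in BL/6J livers, 17.2 to 19.5% in NZB:C57 livers and 1.84 to 2.61% in NZB:NZB livers. Mup2 held 0.0255 to 0.0722% in BL/6J livers, 13.8 to 19.3% in NZB:C57 and 56.0 to 59.1% in NZB:NZB. Mup3 was the largest part in NZB:C57 livers, at 50.5 to 58.5%, and held 37.8 to 41.5% in NZB:NZB. The ranges of the 3 kinds of liver did not overlap for Mup2 or Mup7. Mup7, Mup17, Mup18, Mup19 and Mup20 together held 81.3 to 86.2% in BL/6J livers, 27.7 to 31.6% in NZB:C57 livers and 2.56 to 3.42% in NZB:NZB livers.

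Per kilobase of the longest transcript, which allows levels to be set between genes, mean normalised counts in BL/6J:C57 livers were ordered Mup7 (49224), Mup20 (19670), Mup3 (15987), Mup19 (13123), Mup17 (3278), Mup18 (1126) and Mup2 (56.0). Library ranges of Mup20 and Mup3 overlapped, as did those of Mup3 and Mup19, while the other neighbours in this order were apart. In NZB:NZB livers the order per kilobase was Mup2 (3510), Mup3 (2283), Mup7 (124), Mup20 (39.4), Mup17 (9.73), Mup18 (0.619) and Mup19, which had 0 reads in all 3 libraries. Only Mup18 and Mup19 overlapped there. In NZB:C57 livers the order was Mup3 (6727), Mup7 (2203), Mup2 (2155), Mup17 (759), Mup20 (576), Mup18 (104) and Mup19 (70.8). Mup7 overlapped with Mup2, Mup17 with Mup20, and Mup18 with Mup19.

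**Figure D2:**
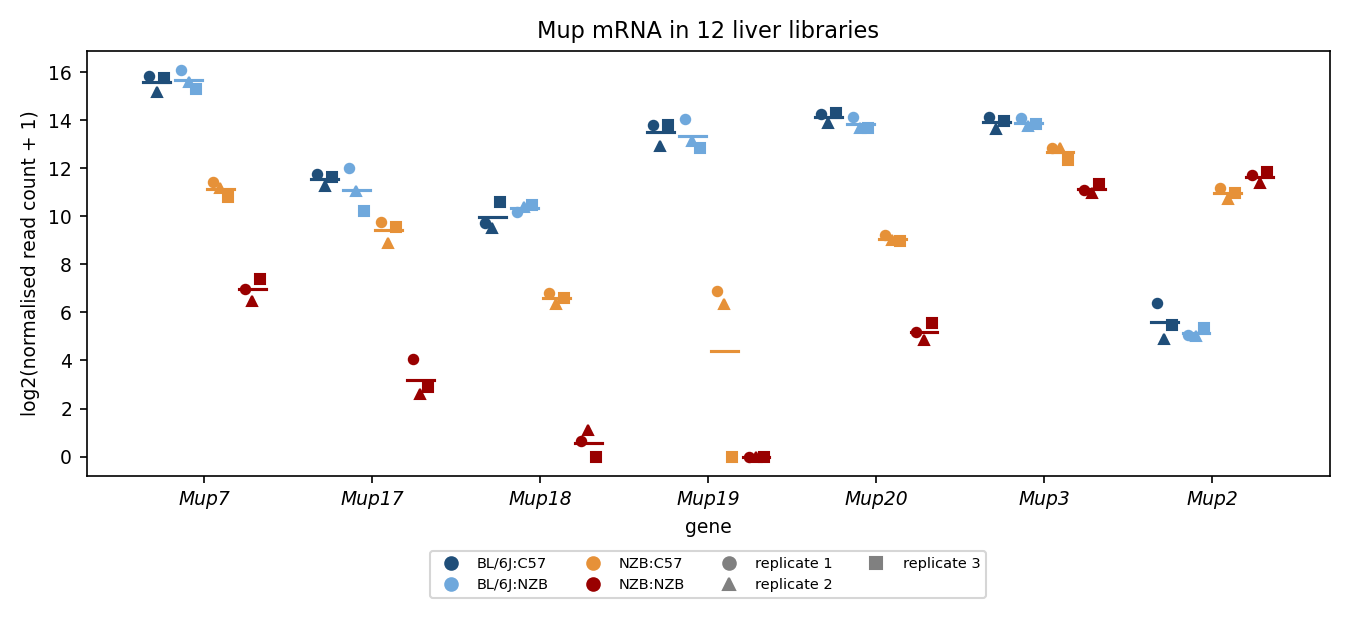
Normalised count of each Mup gene in the 12 liver libraries, as log2(value + 1); points are libraries (the symbol gives the replicate), bars are group means, and groups are the 4 genotypes. Mup3, Mup7, Mup17, Mup18 and Mup20 form steps from BL/6J through NZB:C57 to NZB:NZB without overlap between these steps, and Mup2 runs the other way.

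On the NZB nuclear genome, livers with C57 mtDNA held more of 6 of the 7 Mup RNAs than livers with NZB mtDNA. In this comparison 3.65% of the 13159 genes tested were called higher, 4.44% lower and 8.09% were called in either direction. The median difference of the 7 genes was 4.17 on the log2 scale, beside -0.0 over all genes tested. The groups did not overlap for Mup3, Mup7, Mup17, Mup18 and Mup20, and the share of all genes tested without overlap was not counted.

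Mup7, the most abundant central copy of BL/6J livers, stood at 2760, 2296 and 1771 in NZB:C57 replicates 1, 2 and 3 and at 126, 88.0 and 169 in those of NZB:NZB. Every NZB:C57 library was above every NZB:NZB library. The ratio of means was 17.8, and the log2 fold change was 4.17 (SE 0.27, limma adjusted p = 1.38e-07). Mup17, another central copy, stood at 880, 479 and 751 in NZB:C57 and at 15.6, 5.01 and 6.41 in NZB:NZB, again without overlap. Its log2 fold change of 6.24 (SE 0.42, limma adjusted p = 2.28e-07) was a 78.0-fold ratio of means.

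The row of Mup18, also a central copy, was nearly empty in NZB:NZB livers, with 6, 12 and 0 reads (0.548, 1.18 and 0 as normalised counts). In NZB:C57 livers it stood at 112, 80.9 and 96.6. The groups were apart, with a log2 fold change of 6.01 (SE 0.28, limma adjusted p = 1.08e-08). Mup19 had 0 reads in all 3 NZB:NZB livers, which allows up to 3 reads in each. In NZB:C57 livers it had 1489, 413 and 0 reads (117, 80.2 and 0 as normalised counts), so that 1 NZB:C57 library equalled the NZB:NZB libraries. The mean was at least 219-fold higher against a floor of 3 reads per library, with a fitted log2 fold change of 4.41 (SE 1.24, limma adjusted p = 0.0442). That call was lost when any 1 of 5 of the 6 libraries was left out, all but NZB:C57 replicate 3. Over these 6 runs the log2 fold change was 3.17 to 6.61, the highest being without NZB:C57 replicate 3, where the call was kept. The call was also lost with a pseudocount of 5 and with no filter on low values. Over all alternatives the limma, edgeR or DESeq2 adjusted p was at most 0.18. No sequence word belongs to Mup19 alone, so its reads cannot be separated from those of other copies by sequence alone.

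Mup20, the gene of the pheromone darcin, stood at 595, 512 and 497 in NZB:C57 and at 34.9, 28.3 and 46.3 in NZB:NZB. The NZB:C57 values were close together and all above the NZB:NZB values. The log2 fold change was 3.86 (SE 0.18, limma adjusted p = 1.08e-08) and the ratio of means 14.6. Mup3, the most diverged member, stood at 7374, 7281 and 5204 in NZB:C57 and at 2171, 1982 and 2587 in NZB:NZB. It showed the smallest of the called increases, without overlap, with a log2 fold change of 1.55 (SE 0.18, limma adjusted p = 6.28e-05). Both of these genes have sequence of their own to which reads can be assigned.

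Mup2, the central copy that leads in NZB:NZB livers, ran the other way. It stood at 2287, 1713 and 1991 in NZB:C57 and at 3396, 2675 and 3691 in NZB:NZB. The groups did not overlap, but the log2 fold change of -0.70 (95% interval -1.29 to -0.11) was not called, with a limma adjusted p of 0.172. With library totals in place of the authors' scaling it was -0.94 and called (adjusted p = 0.0268), and it was also called when only the NZB libraries were fitted (adjusted p = 0.0195). Library totals moved the median of all genes by -0.22 in this comparison.

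On the BL/6J nuclear genome, exchange of mtDNA left no member called, by limma, edgeR or DESeq2, and none reached an unadjusted p under 0.05 in limma. Only 0.0076% of the 13159 genes tested (1 gene) was called in this comparison. Mup7 stood at 59507, 36941 and 56095 in BL/6J:C57 and at 69758, 49483 and 39928 in BL/6J:NZB. The groups overlapped, with a log2 difference, BL/6J:NZB minus BL/6J:C57, of 0.05 (95% interval -0.52 to 0.63). Mup20 stood at 19411, 15205 and 20146 in BL/6J:C57 and at 18096, 13101 and 13213 in BL/6J:NZB. The log2 difference was -0.31 (95% interval -0.69 to 0.08), and here too libraries overlapped. For Mup3 it was -0.03 (-0.41 to 0.36), for Mup2 -0.44 (-1.04 to 0.15), for Mup17 -0.45 (-1.35 to 0.45) and for Mup18 0.395 (-0.20 to 0.99). The interval for Mup19 was wide, -2.83 to 2.51. For Mup3, Mup7, Mup17, Mup18 and Mup20, none of the intervals reaches a difference with C57 mtDNA of the size fitted on the NZB nuclear genome.

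The difference between nuclear genomes in the effect of C57 against NZB mtDNA was tested as an interaction, and 5 of the 7 members were called, all more positive on the NZB nuclear genome. This was so for 1.82% of the 13159 genes tested, 0.669% were called more negative, and 2.49% were called in either direction. The interaction was 6.41 (SE 0.39) for Mup18, 5.79 (SE 0.59) for Mup17, 4.22 (SE 0.38) for Mup7, 3.55 (SE 0.25) for Mup20 and 1.52 (SE 0.25) for Mup3 on the log2 scale. Their limma adjusted p-values ran from 4.54e-07 for Mup18 to 0.00304 for Mup3. Mup19 (4.25, adjusted p = 0.386) and Mup2 (-1.14, adjusted p = 0.224) were not called by limma. Mup19 passed in edgeR (adjusted p = 0.042), in DESeq2 and in limma without NZB:C57 replicate 3 (2.24e-06). Mup2 passed in limma without BL/6J:C57 replicate 2 (-1.49, adjusted p = 0.0247).

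**Figure D3:**
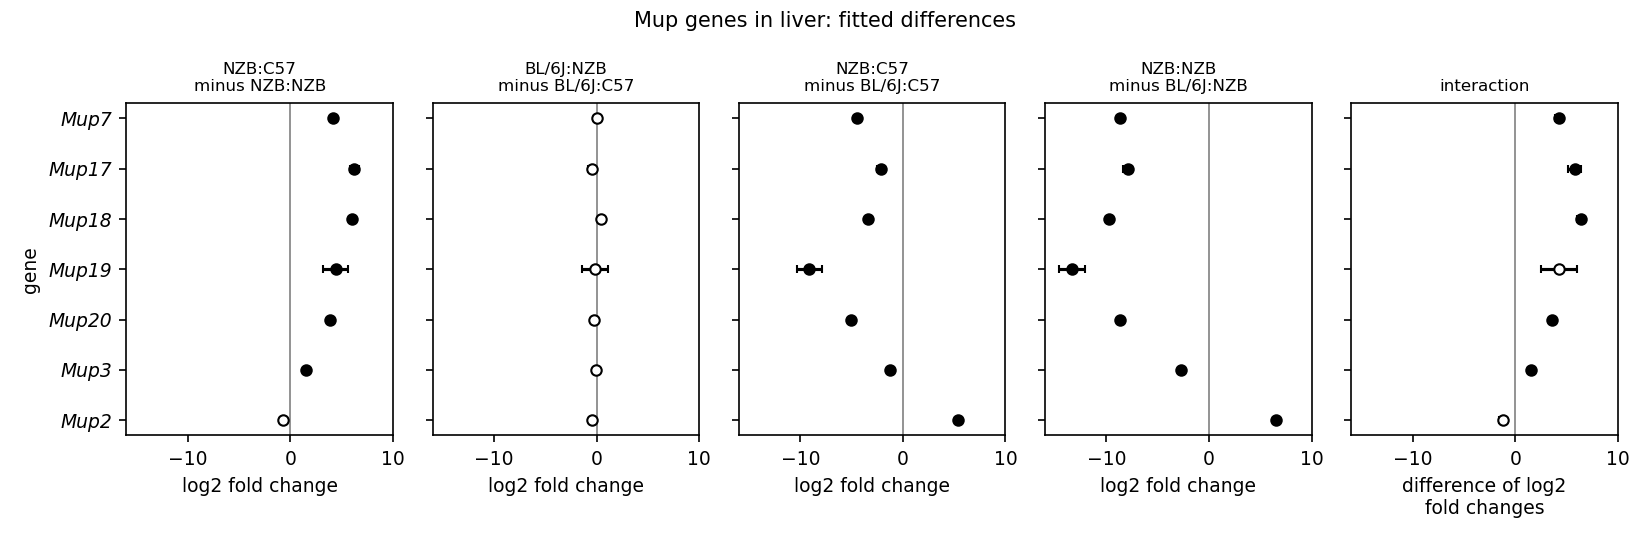
Log2 fold change with its standard error for each Mup gene in 4 liver comparisons and the interaction (log2(value + 1), limma, 12 libraries); filled points have an adjusted p under 0.05. No gene is filled in the BL/6J comparison, and all 7 are filled in both comparisons between nuclear genomes.

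Between nuclear genomes all 7 members were called in both comparisons, 6 lower and 1 higher with the NZB nuclear genome. With C57 mtDNA 27.9% of the 13159 genes tested were called, 13.1% higher and 14.8% lower. With NZB mtDNA 24.9% were called, 12.9% higher and 11.9% lower. With C57 mtDNA, the mean of Mup20 was 34.1-fold lower in NZB:C57 than in BL/6J:C57, that of Mup7 22.3-fold and that of Mup18 10.8-fold. Mup17 was 4.32-fold lower and Mup3 2.38-fold. Limma adjusted p-values for these 5 ran from 7.4e-11 for Mup20 to 0.00192 for Mup17. Mup19 stood at 14498, 7847 and 14150 in BL/6J:C57 livers, and the mean in NZB:C57 was 185-fold lower, with a limma adjusted p of 9.91e-05 and a log2 fold change of -9.11 (SE 1.24). When 1 NZB:C57 library was left out, this log2 fold change ran from -10.35 without replicate 1 to -6.91 without replicate 3, the library with 0 reads.

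With NZB mtDNA the differences were wider. The mean of Mup7 was 415-fold lower in NZB:NZB than in BL/6J:NZB, that of Mup20 405-fold and that of Mup17 278-fold. Mup3 was 6.84-fold lower (log2 fold change -2.78, SE 0.18, limma adjusted p = 6.28e-08). Mup18 stood at 1150, 1355 and 1422 in BL/6J:NZB against 18 reads in all of NZB:NZB (log2 fold change -9.76, limma adjusted p = 7.89e-12). Mup19 stood at 17232, 9101 and 7386 in BL/6J:NZB, and its mean in NZB:NZB was at least 37432-fold lower against the floor of 3 reads per library. The comparisons share libraries with those between mtDNAs, so the values are set side by side and not tested against them.

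Mup2 was the member that rose with the NZB nuclear genome. It stood at 83.8, 29.0 and 43.0 in BL/6J:C57 livers and at 32.6, 31 and 40.3 in BL/6J:NZB livers. Every NZB library was far above these. The mean was 38.5-fold higher in NZB:C57 than in BL/6J:C57 (log2 fold change 5.36, SE 0.28, limma adjusted p = 5.15e-09). It was 93.9-fold higher in NZB:NZB than in BL/6J:NZB (log2 fold change 6.51, SE 0.28, limma adjusted p = 6.53e-10). Its transcript was 99.6% identical to that of Mup19, which went the other way.

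Of the 12 other protein-coding Mup genes, 7 were called higher in NZB:C57 than in NZB:NZB livers and 0 lower, with a median log2 fold change of 1.70. Mup11 (4.46, SE 0.26), Mup14 (4.31, SE 0.26) and Mup16 (4.10, SE 0.26) had the smallest p-values, with adjusted p-values of 6.91e-08, 7.21e-08 and 1.3e-07 in limma. Between BL/6J livers 0 of the 12 were called. With the NZB nuclear genome most of them were called lower, 7 of 12 with C57 mtDNA (median -1.67) and 9 of 12 with NZB mtDNA (median -3.49). Beside them, 14.8% and 11.9% of all genes tested were called lower. Mup1 and Mup9 were the 2 called higher, under either mtDNA, like Mup2. Mup9 averaged 290 ± 144 (SD, n = 3) in BL/6J:C57, 245 ± 89.2 in BL/6J:NZB, 2599 ± 757 in NZB:C57 and 3026 ± 844 in NZB:NZB. Mup10 averaged 20110, 16085, 18999 and 6208 in the same order, so that its mean in NZB:C57 livers lay between those of the BL/6J genotypes. The 6 Mup pseudogenes were low, summing to 20.7 to 41.2 in BL/6J livers and at most 2.43 in NZB livers. All 6 were called lower with the NZB nuclear genome in both comparisons, and 0 were called between mtDNAs. Their sum was 0.776 to 2.43 in NZB:C57 livers and 0 to 0.274 in NZB:NZB livers, without overlap.

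Genes with known male or female bias in liver were counted because Mup genes are themselves male-biased. These lists were chosen with earlier results of these libraries known and so are no independent evidence of direction. In NZB:C57 against NZB:NZB livers, 3.65% of all genes tested were called higher and 4.44% lower. Of 19 male-biased genes 11 were called higher and 0 lower, with a median of 1.11. Hsd3b5, a steroid dehydrogenase, averaged 992 ± 238 (SD, n = 3) in NZB:C57 and 215 ± 36.2 in NZB:NZB, with a log2 fold change of 2.18 (SE 0.21, limma adjusted p = 8.8e-06). Of 20 female-biased genes 17 were called lower and 0 higher, with a median of -3.21. Without NZB:NZB replicate 1, or without replicate 2, 10 female-biased genes were called lower. In the BL/6J pair 0 of either list was called, and 1 male-biased gene in each direction without BL/6J:C57 replicate 3. With the NZB nuclear genome and C57 mtDNA, 13.1% of all genes tested were called higher and 14.8% lower. With NZB mtDNA these shares were 12.9% and 11.9%. Of the male-biased genes, 4 were higher and 11 lower with C57 mtDNA, and 2 higher and 12 lower with NZB mtDNA. The 2 became 1 without replicate 2 or 3 of BL/6J:NZB or of NZB:NZB. Of the female-biased genes, 7 were higher and 1 lower with C57 mtDNA (13 higher in edgeR), and 19 higher and 1 lower with NZB mtDNA (0 lower with a pseudocount of 5).

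RNAs of the signal path known to drive Mup transcription were counted in the same way. Of 12 genes of the growth hormone and STAT5 axis, 2 were called with lower values in NZB:C57 livers and 0 with higher values, against NZB:NZB (median 0.05), where 8.09% of all genes tested were called. They were the prolactin receptor Prlr (-1.0, SE 0.10, limma adjusted p = 1.1e-05) and the IGF carrier Igfbp3 (-1.37, SE 0.22, adjusted p = 0.00118). The growth hormone receptor Ghr averaged 729 in BL/6J:C57, 785 in BL/6J:NZB, 682 in NZB:C57 and 679 in NZB:NZB. Neither Ghr nor Stat5b was called in any liver comparison. Of 12 transcription factors tied to Mup expression, 1 was called higher in this comparison and 1 lower, the latter being Hnf4a (-0.68, SE 0.17, limma adjusted p = 0.02). Zhx2, a repressor of several liver genes, was called lower in NZB:NZB than in BL/6J:NZB (-0.45, SE 0.13, adjusted p = 0.0235) and in no other liver comparison. With the NZB nuclear genome, 3 axis genes were higher and 0 lower with C57 mtDNA, and 4 higher and 1 lower with NZB mtDNA. Of the transcription factors, 3 were higher and 3 lower with C57 mtDNA, and 0 higher and 3 lower with NZB mtDNA. The shares over all genes tested were 27.9% with C57 mtDNA and 24.9% with NZB mtDNA.

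Among 9 other lipocalins tested, the protein family to which MUPs belong, 4 were called higher in NZB:C57 than in NZB:NZB livers and 1 lower (median 0.79). Of all genes tested, 3.65% were called higher there and 4.44% lower. Ambp, the precursor of alpha-1-microglobulin, had a log2 fold change of 0.79 (SE 0.12, limma adjusted p = 0.000867). For Rbp4, the plasma carrier of retinol, it was 0.57 (SE 0.12, adjusted p = 0.00965). Ptgds, a prostaglandin synthase, was called lower (-1.40, SE 0.26, adjusted p = 0.00395). For BL/6J:NZB minus BL/6J:C57 livers 0 of the 9 lipocalins was called, with a median of -0.53. In the interaction 0 was called more positive and 1 more negative (median -0.06), beside 1.82% and 0.669% of all genes tested.

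**Figure D4:**
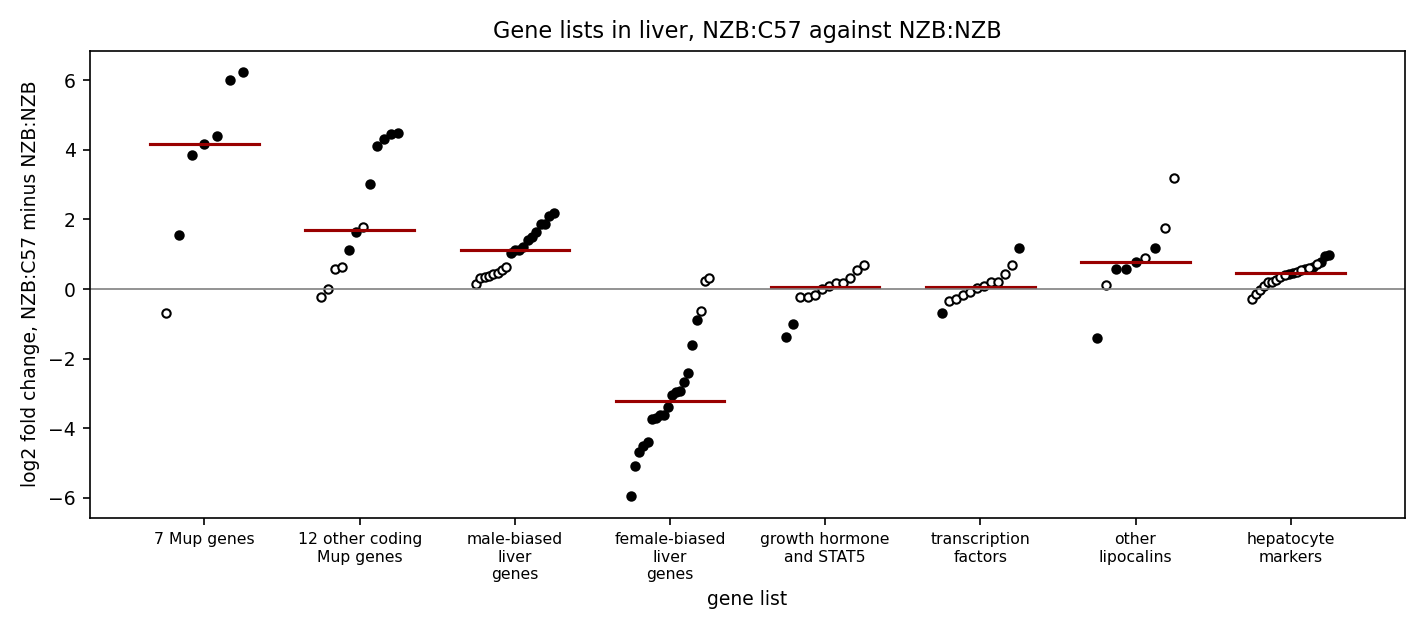
Log2 fold change, NZB:C57 minus NZB:NZB livers, of every tested gene of each list; filled points have a limma adjusted p under 0.05 and red bars mark list medians. The 7 Mup genes have a median of 4.17, male-biased genes 1.11 and female-biased genes -3.21.

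Cell type markers moved with this comparison as well, in which 3.65% of all genes tested were called higher and 4.44% lower. Of 20 hepatocyte markers 7 were called higher in NZB:C57 and 0 lower (median 0.45), and their summed levels were 297485 to 350862 in NZB:C57 and 257957 to 261318 in NZB:NZB. Of 10 endothelial markers 6 were called lower, with sums of 198 to 227 and 376 to 428. Of 10 stellate cell and fibroblast markers 6 were called lower, with sums of 132 to 203 and 349 to 381. Macrophage markers were called higher in 1 and lower in 3 of 11. None of 12 cardiomyocyte and 5 cholangiocyte markers was called. Between nuclear genomes, 11 of 12 cardiomyocyte markers were called higher in NZB:C57 than in BL/6J:C57 livers, beside 13.1% of all genes tested. In NZB:NZB against BL/6J:NZB livers 12 of 12 were called higher, beside 12.9%. The part of these cell types in the Mup results was not tested.

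Genes around the cluster were looked at because the Mup genes sit together. Within 1 Mb of the outermost members, 26 other genes are in the table and 23 were tested. In NZB:C57 against NZB:NZB livers 3 were called higher and 0 lower, with a median of 0.09, beside 3.65% and 4.44% of all genes tested. Between nuclear genomes 7 were called higher and 3 lower with either mtDNA. Beside them, 27.9% of all genes tested were called with C57 mtDNA and 24.9% with NZB mtDNA. The 3 called between the NZB genotypes all lie inside the cluster: Gm13773 (1.41, SE 0.19), Gm13775 (1.70, SE 0.28) and Gm12573 (0.89, SE 0.20), predicted genes on the plus strand, with limma adjusted p-values of 0.000274, 0.00127 and 0.0136. The span of Gm13773 contains the pseudogene Mup-ps6, and that of Gm13775 contains Mup-ps16, on the same strand. Gm13773 and Gm13775 are therefore not separate from the Mup copies. Gm13773 and Gm13775 were lower with the NZB nuclear genome, by -3.59 and -5.32 with NZB mtDNA, whereas Gm12573 was higher by 1.48 with C57 mtDNA (adjusted p = 0.000105) and was not called with NZB mtDNA (0.51, adjusted p = 0.087). Outside the cluster, Wdr31 differed between nuclear genomes by -1.37 with C57 mtDNA and -1.22 with NZB mtDNA, and by -0.02 (adjusted p = 0.981) between the NZB genotypes. Alad, an enzyme of heme synthesis, was higher with the NZB nuclear genome by 0.48 and 0.73.

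Genes with a pattern over the 12 livers like that of the summed Mup genes were sought by the mean absolute difference of centred log2 values. The 9500 genes ranked had a mean of at least 5, and Mup genes and predicted gene models were left out. Akr1c12, an aldo-keto reductase, was the nearest of those ranked at 0.290. It was followed by Nat8f5 (0.319), Adrb3 (0.348), Gsta2 (0.366), Serpina12 (0.370), Col5a3 (0.370), Rpl21 (0.375) and H2-K1 (0.385). Akr1c12 averaged 84.9 in BL/6J:C57, 81.9 in BL/6J:NZB, 12.8 in NZB:C57 and 6.21 in NZB:NZB livers. The points share libraries and scaling, and the likeness is a description. On the same measure Mup3 was the member nearest to the sum (0.773) and Mup2 the farthest (4.75).

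In heart the same genes were present at trace levels. The 7 genes summed to 20.5, 21.0 and 21.3 over BL/6J:C57 hearts, from the lowest to the highest, and to 29.2, 33.4 and 73.0 over BL/6J:NZB hearts. They summed to 1.44, 4.70 and 5.74 over NZB:C57 hearts. In NZB:NZB hearts the sum was 2.70 in replicate 1, 79.5 in replicate 2 and 119 in replicate 3. Replicate 1 lay among the NZB:C57 hearts, while replicates 2 and 3 lay above every other heart.

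The composition separated these hearts in the same way. In NZB:NZB replicate 1, Mup2 made up 21 of 34 reads of the 7 genes, and Mup7, Mup17, Mup18, Mup19 and Mup20 together 0 of 34, which allows a share of up to 10.3% (exact 95% interval). In replicate 2 these 5 genes held 90.2% (exact 95% interval 87.0 to 92.7) and Mup2 0 of 457 reads, which allows up to 0.804%. In replicate 3 they held 93.6% (91.6 to 95.3) and Mup2 0 of 706 reads, up to 0.521%. Intervals cover counting error only. In this share replicates 2 and 3 were nearer to BL/6J livers (81.3 to 86.2%) than to NZB:NZB livers (2.56 to 3.42%). Of 35 genes high in NZB and at or near 0 in BL/6J livers, picked for this check after the data were seen, 28 reached a value of 5 in every NZB:NZB and NZB:C57 heart, replicates 2 and 3 included, and 2 in every BL/6J heart.

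**Figure D5:**
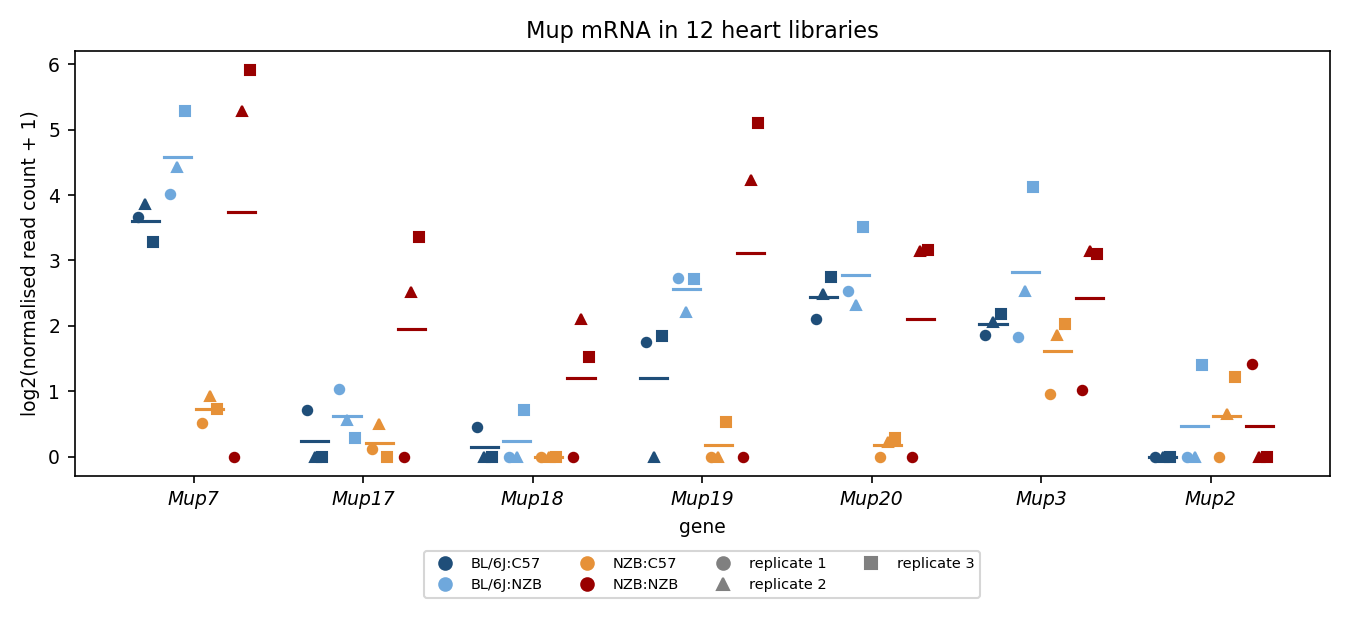
Normalised count of each Mup gene in the 12 heart libraries, as log2(value + 1), with points for libraries (the symbol gives the replicate) and bars for group means. In NZB:NZB hearts replicates 2 and 3 are high for Mup7 (38.1 and 59.2), where replicate 1 is at 0.

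Hepatocyte RNA was measured beside these values. The 20 hepatocyte markers summed to 47.7 to 61.0 in BL/6J:C57 hearts, 69.0 to 330 in BL/6J:NZB hearts, 111 to 203 in NZB:C57 hearts and 177 to 206 in NZB:NZB hearts, and 0 of the 20 were at 0 throughout a group. The 330 belonged to BL/6J:NZB replicate 3, the library with the highest Mup sum of its group. The ratio of the 7 genes to Alb was 0.0451, 1.53 and 2.18 in NZB:NZB replicates 1, 2 and 3. It was 0.0483 to 0.119 in NZB:C57 hearts, 0.560 to 2.64 in BL/6J hearts, 0.0359 to 0.0991 in NZB livers and 0.985 to 1.74 in BL/6J livers. The hepatocyte marker sums of NZB:NZB replicates 1, 2 and 3 were 177, 206 and 202, so these 3 hearts were alike in that measure. The part of liver RNA in the heart values was not tested. The 12 cardiomyocyte markers summed to 289931 to 296156 in NZB:C57 hearts and to 34669 to 53222 in the others.

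Heart comparisons rested on these libraries. Of the 6 members tested in heart, 4 were called between NZB:C57 and NZB:NZB, all with the lower mean in NZB:C57, namely Mup7 (-3.01), Mup17 (-1.75), Mup19 (-2.94) and Mup20 (-1.93), with limma adjusted p-values of 0.0383, 0.0392, 0.0229 and 0.0273. In this comparison 2.89% of the 13803 genes tested were called lower, 13.0% higher and 15.9% in either direction. All 4 overlapped between groups, and 0 was called without NZB:NZB replicates 2 and 3, or without any 1 of these or of NZB:C57 replicates 1 and 2. Without NZB:C57 replicate 3, Mup19 was called, and without NZB:NZB replicate 1, Mup3 was called as well, making 5. Between BL/6J hearts 0 of 6 was called, beside 0.935% of all genes (0.427% higher and 0.507% lower). In NZB:C57 against BL/6J:C57 hearts, Mup7 (-2.87, SE 0.95, adjusted p = 0.0252) and Mup20 (-2.28, SE 0.57, adjusted p = 0.00461) were called lower without overlap, beside 35.2% of all genes in either direction (22.1% higher and 13.1% lower). Mup20 was still called whichever 1 library was left out, whereas Mup7 was not called without BL/6J:C57 replicate 1 or 2 or without NZB:C57 replicate 1 or 3, and 1 gene was then called. In NZB:NZB against BL/6J:NZB hearts 0 of 6 was called, beside 29.1% of all genes (15.5% higher and 13.6% lower). Without NZB:NZB replicates 2 and 3, Mup7, Mup19 and Mup20 were called lower there, and without replicate 1, Mup7, Mup17 and Mup19 were called higher. The heart interaction called 0 of 6, beside 11.2% of all genes (9.81% positive and 1.42% negative). Without replicates 2 and 3 it called 1, Mup7, and without replicate 1 it called 4. Mup18 did not pass the filter in heart and was not tested; it had 0 reads in all 3 NZB:C57 hearts.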

How the data were processed

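Polyadenylated RNA of 24 libraries (4 genotypes, 2 tissues, 3 pools each) was analysed from the 1 deposited table. Its values are a signal that the authors normalised, as read counts, per the file headers. Per the submitters' processing notes, the build was GRCm38 and the tools included Bowtie2 2.0.6, RSEM 1.2.3, edgeR (version not given) and cutadapt 1.2.1. Their order and roles, and how reads were divided among near-identical copies, are not given in the sources used here. Dividing each column by a constant of its own made 100% of its values whole (tolerance 0.01), which recovered the reads per gene. Depth was 7294525 to 34974268 reads in liver and 3714278 to 12949956 in heart. All 24 columns were matched to samples by name, and 98.65% of the 15323 genes had a symbol.

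Tests used limma 3.58.1 (trend) in R 4.3.3 on log2(value + 1), which understates changes of low genes, for genes that reached 1 in 3 or more of a tissue's libraries (13159 in liver, 13803 in heart), with Benjamini-Hochberg adjustment over all of them. The interaction is (NZB:C57 minus NZB:NZB) minus (BL/6J:C57 minus BL/6J:NZB). Intervals of differences are 95% intervals from limma, and intervals of shares are exact (Clopper-Pearson). The floor for 0 reads is 3 reads. The procedure was tested on simulated data. Alternatives were another pseudocount, no filter, library totals, the compared libraries alone, edgeR 4.0.16 and DESeq2 1.42.0 on recovered reads, a replicate block, and leaving out each library.

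The 7 genes and all lists were chosen with earlier results of these data known. Named genes were the members, the other Mup rows, up to 3 called genes of smallest p per list and direction, the 8 ranked genes most like the Mup sum, and neighbours within 1 Mb. Ghr and Stat5b fall outside that rule and were named after their values were seen. Same-numbered pools deviated together in liver NZB:NZB against BL/6J:NZB only (correlations 0.17, 0.14 and 0.15). These numbers come from the titles. Some members of the lists are counted but not reported here by name.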

Additional observations from a re-analysis of the deposited data

Results flagged for a closer look

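In liver, the effect of C57 against NZB mtDNA differed between the nuclear genomes for 5 of the 7 Mup genes, by limma's interaction test over 12 libraries. Of all 13159 genes tested, 2.49% were called in this interaction. The log2 interaction was 1.52 for Mup3, 4.22 for Mup7, 5.79 for Mup17, 6.41 for Mup18 and 3.55 for Mup20. In each of the 5, all 3 NZB:C57 pools were above all 3 NZB:NZB pools, while the BL/6J pools overlapped. The share of all genes tested that were apart in this way was not counted. Leaving out any 1 library kept all 5 calls.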

How the results depend on the processing

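In liver all 7 genes were called between nuclear genomes and 0 in the BL/6J pair under every alternative run. Counts called in NZB:C57 against NZB:NZB livers were 5 to 6 of 7 when 1 library was left out, and in the interaction 5 to 6. With only the libraries compared, Mup19 did not pass the filter there and has no value. The log2 ratio of summed Mup values, NZB:C57 over NZB:NZB, was 1.12, and 0.88 with library totals (RPM). Over all protein-coding Mup genes it was -1.63 for NZB:C57 over BL/6J:C57 and -2.85 for NZB:NZB over BL/6J:NZB, against -3.04 and -4.12 for the 7 genes; this follows from adding 12 genes. Leaving out 1 library gave 1.0 to 1.23 for NZB:C57 over NZB:NZB, -0.28 to 0.10 in the BL/6J pair, and -3.21 to -2.93 and -4.26 to -3.88 between nuclear genomes.

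Heart counts of called genes changed more, and the cause was not tested. In NZB:C57 against NZB:NZB hearts the 4 calls became 0 with a pseudocount of 0.1, with no filter, with only the libraries compared and without NZB:NZB replicates 2 and 3, and ran from 0 to 5 when 1 library was left out. In NZB:C57 against BL/6J:C57 hearts the 2 calls became 1 with a pseudocount of 0.1 or 5 and with no filter, and 1 to 2 without 1 library. In NZB:NZB against BL/6J:NZB hearts the count of 0 became 1 with a pseudocount of 5 and in edgeR, 3 without NZB:NZB replicates 2 and 3, and 0 to 3 without 1 library. Its direction depended on the libraries: Mup7 was -4.58 without replicates 2 and 3 and 1.02 without replicate 1. It became 1 in the BL/6J pair with only the libraries compared. The heart interaction called 1 without replicates 2 and 3 and 0 to 4 without 1 library. Library totals moved the median of all genes by -0.64 in NZB:C57 against NZB:NZB hearts.

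With the replicate block, 6 of 7 genes were called in NZB:C57 against NZB:NZB livers, 7 in each comparison between nuclear genomes, 5 in the interaction and 0 in the BL/6J pair, as without it; in NZB:C57 against NZB:NZB hearts it called 3 and not 4. Few reads limit Mup18 and Mup19 in NZB:NZB livers (18 and 0 reads). They also limit all 7 genes in NZB:C57 hearts and NZB:NZB heart replicate 1, which hold 17 to 57 reads of them in all. Library depth did not go with this: the heart with 17, NZB:C57 replicate 1, held 12471158 reads of all genes. NZB:NZB heart replicate 3, with 706 reads of the 7 genes, held 3807404.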
